A study of Mus musculus with 19 samples.

Results

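Cystic embryoid bodies (EBs) grown from the mouse ES cell clone JN were compared with visceral yolk sac (VYS) mesoderm dissected from E9.25 embryos, across vascular, blood, stromal, pluripotent and endodermal genes on the autosomes. All RNA-seq libraries of these 2 groups entered: 1 library of JN cystic EBs at differentiation day 10 (d10), 1 at d15, and replicates A and B of the mesoderm, 4 of the 19 samples of the series. They share a strand-specific dUTP library protocol. The JN cells are 1 XX clone of C57Bl/6x129 background, kept on a layer of irradiated fibroblasts and aggregated by spinning before they were grown in suspension. The mesoderm came from FVB/N embryos, with a whole litter pooled in each sample, and was peeled by hand from the endoderm after Dispase II digestion, keeping its vessels and basement membrane. Strain, sex and growth in culture therefore differ together with tissue and cannot be told apart from it, and genes of the sex chromosomes were left out. The 2 JN libraries are different days, so the spread within that group holds the day as well, and nothing in the labels says that they came from separate cultures. Libraries of E9.25 yolk sac endoderm (ysE), the layer that lies against the mesoderm, were prepared in the same way and are given where they bear on a value.

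The VYS mesoderm is the inner layer of the yolk sac. It forms the blood islands, in which primitive red cells, the first macrophages and megakaryocytes and a capillary network arise, together with vessel-wall cells, fibroblasts and a mesothelial lining. Primitive red cells use embryonic globin chains that later red cells replace. Cystic EBs are fluid-filled aggregates in which ES cells leave pluripotency, a state held by Pou5f1, Sox2 and Nanog, and form an outer endoderm, mesoderm derivatives such as beating heart muscle and blood vessels, and ectoderm in an unpatterned arrangement. In bulk RNA, fewer cells of a type and less RNA per cell cannot be told apart.

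Levels are given as RPKM, the authors' read counts scaled to transcript length and library size, and differences as log2 fold changes of JN cystic EBs over mesoderm with their standard error (SE), fitted to read counts. Total counts were 96882725 and 110465060 in the JN libraries and 107121229 and 119296265 in mesoderm A and B. Of 22199 autosomal genes in the table, 16708 passed the filter on low counts. A gene was called when its adjusted p was under 0.05 by edgeR (quasi-likelihood test, Benjamini-Hochberg method over all transcripts tested). By that rule 42.2% of the autosomal genes tested were called, 20.7% (3453) higher and 21.5% (3599) lower in JN cystic EBs, and the 4 libraries did not overlap between groups for 74.3% of genes, with both JN libraries above both mesoderm libraries for 37.1% and below them for 37.2%. These shares are what the counts below are read against. Among all autosomal genes the median difference was 0.01 on the log2 scale, and the median size of the difference was 0.67. The 19 gene lists used below held 350 genes, of which 348 were found on autosomes in the table and 338 passed the filter. A gene with reads in 1 group only enters through that group, so the counts in the lists describe which way the members lay and how many were called.

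The marker genes Tek, Postn and Pou5f1 separated the groups. Coordinates given with them span the whole RefSeq gene, not the single transcript named beside them. Tek, the angiopoietin receptor of endothelial cells (NM_013690, chr4:94739086-94874976, mm10), had 1.57 and 4.26 RPKM in JN cystic EBs at d10 and d15 against 47.5 and 41.6 in mesoderm A and B. Postn, a matrix protein of fibroblasts and vessel walls (NM_001198765, chr3:54359267-54391041), had 7.50 and 76.6 RPKM against 386 and 228. Pou5f1, the pluripotency factor Oct4 (NM_013633, chr17:35506032-35510777), had 76.8 and 39.1 RPKM in JN cystic EBs against 0.122 and 0.0940 in mesoderm. For all 3 genes the 2 groups did not overlap, and the d15 library lay nearer to mesoderm than the d10 library.

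Promoter sequences are shown for these 3 genes and for Hba-x, an embryonic globin gene that stands for the blood group, because an independent chromatin readout was made on the yolk sac. It is a ChIP-seq peak list for H3K4me3, a histone mark of promoters in use, from whole E12.5 VYS, that is mesoderm and endoderm together. Each sequence runs from 250 bases before to 50 bases after an annotated start (RefSeq, GRCm38.p6, the assembly also called mm10), written 5′ to 3′ along the gene. They lie at chr4:94739039-94739338 (Tek, plus strand), chr3:54360857-54361156 (Postn, the downstream of its 2 starts, plus strand), chr17:35505782-35506081 (Pou5f1, plus strand) and chr11:32276350-32276649 (Hba-x, plus strand). Capitals mark matches to 3 motifs, AGATAA (bound by GATA factors) and AGGAAG (bound by ETS factors) on either strand and the TATA box TATAAA on the gene's strand.
Tek: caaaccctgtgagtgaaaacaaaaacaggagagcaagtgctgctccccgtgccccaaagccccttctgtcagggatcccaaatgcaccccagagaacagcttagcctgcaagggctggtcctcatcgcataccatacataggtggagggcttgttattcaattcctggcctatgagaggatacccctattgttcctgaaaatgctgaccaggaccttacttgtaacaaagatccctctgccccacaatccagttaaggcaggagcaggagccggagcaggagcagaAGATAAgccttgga
Postn: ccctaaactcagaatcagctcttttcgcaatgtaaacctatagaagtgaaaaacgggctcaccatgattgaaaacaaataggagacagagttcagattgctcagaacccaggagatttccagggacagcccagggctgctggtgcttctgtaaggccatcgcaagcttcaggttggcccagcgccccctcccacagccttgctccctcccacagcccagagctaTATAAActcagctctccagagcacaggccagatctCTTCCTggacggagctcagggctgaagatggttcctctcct
Pou5f1: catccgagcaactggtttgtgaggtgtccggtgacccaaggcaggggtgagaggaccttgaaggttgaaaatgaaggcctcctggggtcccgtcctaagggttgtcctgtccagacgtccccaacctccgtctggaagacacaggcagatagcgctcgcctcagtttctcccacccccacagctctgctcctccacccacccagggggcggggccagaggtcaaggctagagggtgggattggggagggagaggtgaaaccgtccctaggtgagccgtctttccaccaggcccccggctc
Hba-x: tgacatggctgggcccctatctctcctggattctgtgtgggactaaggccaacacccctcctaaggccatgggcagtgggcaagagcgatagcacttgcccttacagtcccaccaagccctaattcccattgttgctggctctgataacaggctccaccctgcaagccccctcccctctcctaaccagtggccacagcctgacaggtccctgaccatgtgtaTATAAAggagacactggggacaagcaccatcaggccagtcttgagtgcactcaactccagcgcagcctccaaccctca
A yolk sac H3K4me3 peak lay within 1 kb of the start of Tek (MACS score 2109) and of this start of Postn (score 3100), while the upstream start of Postn had a score of 54.9. No peak lay within 1 kb of the starts of Pou5f1 and Hba-x shown.

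**Figure D1:**
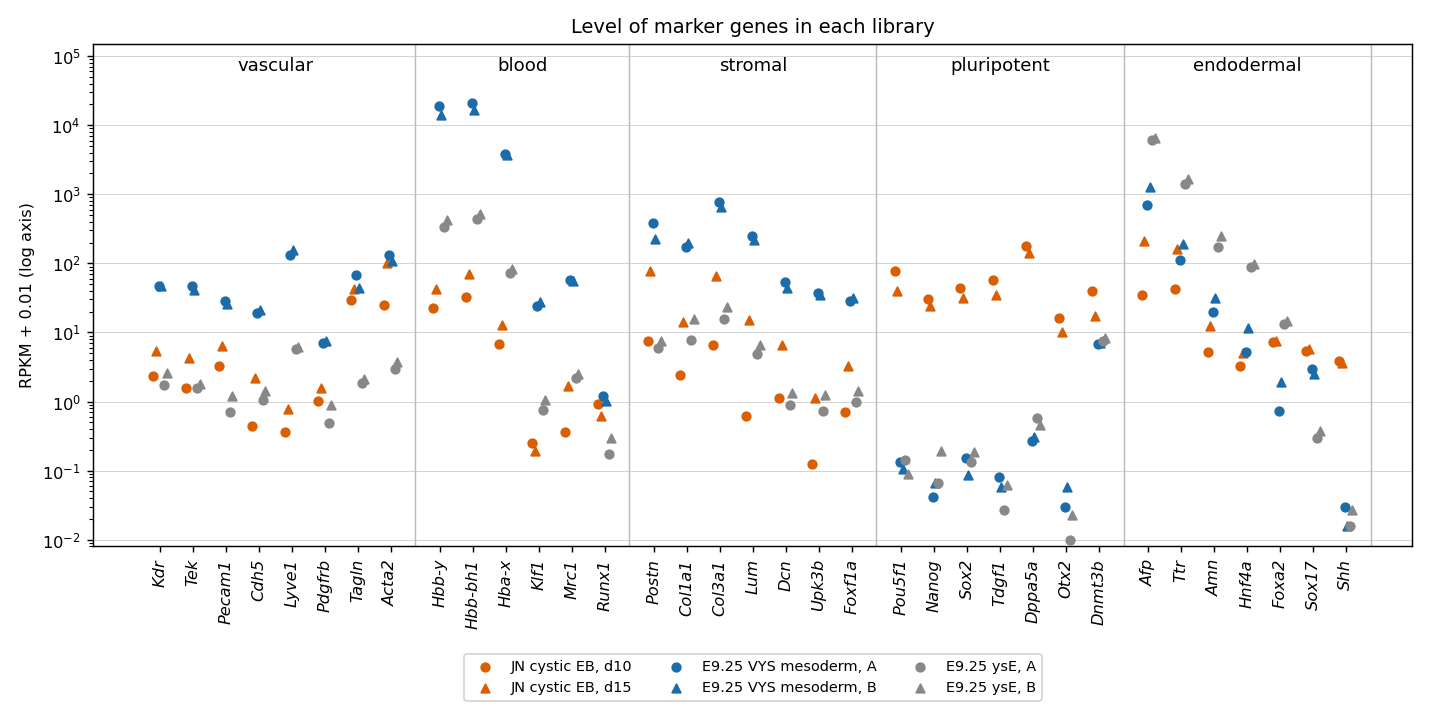
RPKM plus 0.01 on a log axis for marker genes of the 5 groups, one point per library (JN cystic EBs in orange, E9.25 VYS mesoderm in blue, E9.25 ysE in grey). The genes plotted were picked from the lists. The mesoderm points lie above the JN points for the vascular, blood and stromal genes picked, and the 7 pluripotent genes picked lie the other way round. The 7 vascular, 2 blood and 7 stromal genes called higher in JN cystic EBs are not plotted.

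Endothelial genes were lower in JN cystic EBs almost throughout. Of 30 endothelial receptors, junction proteins and regulators, 29 were lower and 1 was higher (background 21.5% and 20.7%), the 4 libraries lay apart in the same directions for 29 and 1 (background 37.2% and 37.1%), with a median log2 difference of -3.68 that became -4.36 without the d15 library. Kdr, the main VEGF receptor, had 2.36 and 5.39 RPKM in JN cystic EBs against 47.1 and 47.0 in mesoderm, a difference of -3.74 ± 0.38 (SE, n = 2 libraries a group). For Tek the difference was -4.07 ± 0.42. Leaving out the d15 library made both larger, to -4.39 for Kdr and -4.90 for Tek. Pecam1, an adhesion molecule of endothelial junctions, had 3.27 and 6.28 RPKM against 28.9 and 25.4, and the junction cadherin Cdh5 had 0.427 and 2.15 RPKM against 19.4 and 20.8.

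The genes with the largest endothelial differences were Lyve1, Gja5, Stab2 and Plvap. Lyve1, a hyaluronan receptor of lymphatic and yolk sac endothelium, had 0.347 and 0.761 RPKM in JN cystic EBs against 134 and 157 in mesoderm. Gja5, a gap junction protein of arterial endothelium, had 0.112 and 0.153 RPKM against 30.3 and 23.1, and its difference of -7.77 ± 0.30 moved by less than 1.5 times when any one of the 4 libraries was left out. Stab2, a scavenger receptor of sinusoidal endothelium, had 0.166 and 0.617 RPKM against 65.6 and 61.7. Plvap, which forms the diaphragms of capillary pores, had 0.728 and 1.52 RPKM against 43.3 and 47.8. These 4 genes were at or below 1.52 RPKM in both JN libraries. The defining markers did not all lie apart from that level, since Tek had 1.57 RPKM at d10 and Cdh5 had 0.427. At the other end, the VEGF receptor Flt1 was close between groups, with 6.51 and 6.82 RPKM against 8.91 and 9.44, and its call was lost when any one of the 4 libraries was left out.

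Efnb2, an ephrin ligand of arterial endothelium that other embryonic tissues also make, was the endothelial gene that was higher in JN cystic EBs, at 8.06 and 9.57 RPKM against 4.35 and 4.76. Its difference was 0.83 ± 0.19, with an adjusted p of 0.0129 in edgeR's quasi-likelihood test that rose above 0.05 when either mesoderm library was left out. This gene was named after its values were seen, since it is the single exception in its list.

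Vascular ligands, for these receptors and for the PDGF receptors of vessel-wall cells, went both ways: 2 of 8 were higher, 3 lower and 3 not called. That is 25% higher and 37.5% lower, against 20.7% and 21.5% of all genes. The VEGF receptor ligand Vegfb had 4.69 and 4.21 RPKM in JN cystic EBs against 1.63 and 1.78 in mesoderm, and was called higher, a call lost without mesoderm replicate A. Vegfa, the leading VEGF ligand, had 21.6 and 22.1 RPKM against 14.8 and 14.7, a difference of 0.45 ± 0.13 with an adjusted p of 0.0318 in edgeR's quasi-likelihood test. That call was lost without either mesoderm library or without the d10 library, where the difference was 0.42, 0.46 and 0.43. The fit of the 4 libraries alone and that of all 11 also lost the call of Vegfa. Angpt1, the ligand of Tek made by vessel-wall cells, had 1.23 and 3.25 RPKM against 12.1 and 10.7. Pdgfd, a growth factor for vessel-wall cells, was lower as well, at 0.218 and 0.490 RPKM against 3.14 and 2.93. Vegfc, the lymphatic VEGF, had 2.37 and 3.12 RPKM against 5.22 and 4.45, and its call was lost without either mesoderm library.

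Smooth muscle and pericyte genes, which mark the cells around vessels, gave 4 of 18 higher (22.2%, against 20.7% of all genes), 7 lower (38.9%, against 21.5%) and 7 not called and a median of -0.23. Acta2, smooth muscle actin, had 24.7 RPKM at d10 and 102 at d15 against 133 and 109 in mesoderm. It was not called (-1.07 ± 0.53), and the difference was -2.37, then called, without the d15 library and -0.40 without the d10 library. Tagln, an actin-binding protein of smooth muscle, had 29.0 and 43.2 RPKM against 67.3 and 44.6, so that the d15 library nearly met mesoderm B. Its call was lost without the d10 library (-0.53) and without mesoderm A (-0.46). Pdgfrb, the pericyte growth factor receptor, had 0.995 and 1.53 RPKM against 7.03 and 7.57, and it stayed called without any one of the 4 libraries. Actg2, an enteric-type smooth muscle actin, had 0 and 0.208 RPKM against 4.08 and 3.31. On the other side stood Rgs5, a pericyte signalling regulator, at 2.05 and 4.03 RPKM against 0.477 and 0.132. Notch3, the Notch receptor of vessel-wall cells, had 7.64 and 3.92 RPKM against 0.817 and 0.703. The remaining higher genes, Cnn1 and Tpm2, lost their calls without the d10 library or mesoderm B, and Tpm2 also without d15. The list had 4 genes lower without d10 or without mesoderm A, and 2 higher without mesoderm B.

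**Figure D2:**
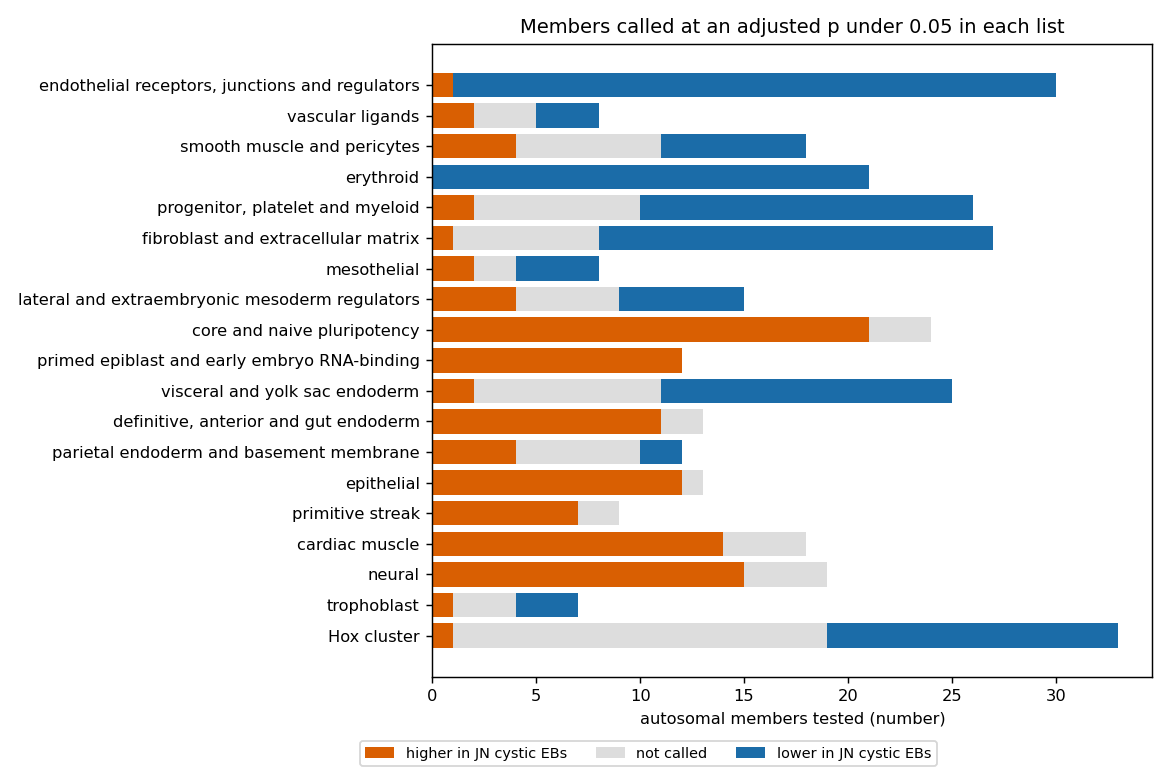
Number of autosomal genes tested in each list that were called higher (orange), not called (grey) or called lower (blue) in JN cystic EBs than in E9.25 VYS mesoderm. All 21 erythroid genes and 29 of 30 endothelial genes were lower, and all 12 genes of the primed epiblast and RNA-binding list were higher.

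Red cell genes showed the widest gap of the blood group. All 21 erythroid genes tested were lower in JN cystic EBs, against 21.5% of all genes. Their median log2 difference was -7.67, with a range from -9.10 to -3.03. The median was -8.41 without d15. Hbb-bh1 and Hbb-y, embryonic beta-type globins, reached 21222 and 16453 RPKM and 18741 and 13955 RPKM in mesoderm A and B. In JN cystic EBs Hbb-bh1 had 32.6 RPKM at d10 and 71.0 at d15, and Hbb-y had 22.9 and 42.4. Hba-x, the embryonic alpha-type globin whose promoter is shown above, had 6.89 and 12.6 RPKM against 3884 and 3741, a difference of -8.74 ± 0.35. Each of these 3 globins was higher at d15 than at d10, and below both mesoderm libraries on both days. The adult-type alpha globins Hba-a1 and Hba-a2 had nearly the same counts in every library, equal in 8 of 11, so reads of these near-identical copies were counted for both and the genes are 1 measurement. The same holds for Hbb-b1 and Hbb-b2, with equal counts in 9 of 11, so the list holds fewer independent members than its 21 genes. Hba-a1 had 3.31 and 6.27 RPKM against 1916 and 1857.

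The regulators of red cells lay with the globins. Klf1, the erythroid transcription factor, had 0.238 and 0.179 RPKM in JN cystic EBs against 24.2 and 27.2 in mesoderm, a difference of -7.06 ± 0.30. Tal1, a regulator of blood and endothelial precursors, had 0.301 and 0.539 RPKM against 19.3 and 21.8. The smallest difference of the list was that of Fech, the last enzyme of heme synthesis, which many cells use, at 6.86 and 11.1 RPKM against 65.2 and 69.2. Summed over the list, JN cystic EBs had 78.8 and 154 RPKM and mesoderm 48124 and 38354. In ysE the sum was 970 and 1155 RPKM, and a gene's level there was a median of 3.22% of its mesoderm level.

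Genes of blood progenitors, platelets and myeloid cells were lower in most cases, with 16 of 26 lower, 2 higher and 8 not called. That is 61.5% lower and 7.69% higher, against 21.5% and 20.7% of all genes. In the fit of the 4 libraries alone 12 were lower, and by limma on log2(RPKM + 1) 19. The median of -2.83 became -5.33 without d15 and -2.28 without d10. Mrc1, a receptor of yolk sac macrophages and of some endothelium, had 0.356 and 1.69 RPKM in JN cystic EBs against 57.0 and 55.8 in mesoderm. Pf4, a platelet and megakaryocyte chemokine, had 0.0740 RPKM at d10, 3.48 at d15, and 53.6 and 64.3 in mesoderm. Its difference of -5.20 ± 1.16 was -9.68 without the d15 library and -4.24 without the d10 library. Mpo, a granule enzyme of myeloid cells, had 3 reads in both JN libraries together and 1897 in mesoderm. Spi1 (named Sfpi1 in the table), the myeloid transcription factor, had 0.0260 and 0.0480 RPKM against 1.15 and 1.49, and Ptprc, the pan-leukocyte antigen CD45, had 0.0150 and 0.145 against 1.23 and 1.79. Csf1r, the macrophage growth factor receptor, had 0.325 and 1.26 RPKM against 2.62 and 2.20, and its call was lost without either mesoderm library. Complement gene C1qa, made by macrophages, had 0 RPKM at d10 and 0.156 at d15 against 0.709 and 1.06, and was likewise called only with both mesoderm libraries in the fit.

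Runx1, needed for definitive blood formation, was near in level on both sides, at 0.903 and 0.613 RPKM in JN cystic EBs and 1.18 and 1.0 in mesoderm, and was not called (-0.63 ± 0.33). Kit, the stem cell factor receptor, was one of the 2 genes of the list that were higher, at 9.61 and 8.83 RPKM against 1.97 and 1.39. Its difference was 2.34 ± 0.26. Kit also marks germ cells and other embryonic progenitors. The other was Cd68, a lysosomal protein used as a macrophage marker, at 3.92 and 4.19 RPKM against 0.709 and 1.25. Of the macrophage genes not called, the F4/80 gene Emr1 had 0.0130 RPKM at d10 and 0.452 at d15 against 0.223 and 0.278, and Tyrobp, a signalling adaptor of myeloid cells, had 0 and 0.997 against 2.40 and 3.63. Kit and Cd68 were named after their values were seen, as the exceptions.

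Fibroblast and extracellular matrix genes were mostly lower in JN cystic EBs, 19 of 27, with 1 higher and 7 not called. The lower share was 70.4% and the higher share 3.70%, against 21.5% and 20.7% of all genes. The median of -2.42 became -1.76 without d10. Col3a1, a fibrillar collagen of soft tissue, had 6.58 RPKM at d10 and 66.7 at d15 against 774 and 644 in mesoderm. Col1a1, the main fibrillar collagen, had 2.43 and 14 RPKM against 174 and 198. Lum, a collagen-binding proteoglycan, had 0.615 and 15.1 RPKM against 249 and 221, and Dcn, another such proteoglycan, had 1.10 and 6.60 against 53.1 and 44.7. In each of these the d15 library was several times above d10 and below both mesoderm libraries. The difference of Col1a1 was -4.65 ± 0.78, which became -6.33 without d15 and -3.89 without d10. For Postn it was -3.02 ± 0.89, with an adjusted p of 0.0299 in edgeR's quasi-likelihood test. Its range over the alternatives ran from 3.04e-05 without the d15 library to 0.0730 without mesoderm A, and the Postn log2 fold change had an adjusted p of 0.0602 in the fit of the 4 libraries alone and of 0.0644 and 0.0645 without either ysE library, so the call of this marker depended on which libraries shared the estimate of the spread. Its log2 difference was -5.43 without d15, -2.15 without d10 and -2.62 without mesoderm A.

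Fn1, the matrix glycoprotein fibronectin, differed less, at 48.2 and 46.4 RPKM against 114 and 106, and was called lower. Vcan, a large proteoglycan of embryonic matrix, was not called, at 13.5 and 17.5 RPKM against 16.5 and 17.9. Pdgfra, a receptor of mesenchyme and of primitive endoderm, was not called either, at 9.66 and 10.5 RPKM against 8.26 and 4.8. Prrx1, a homeobox gene of limb and skeletal mesenchyme, was the 1 gene of the list that was higher, from low levels of 0.849 and 0.700 RPKM against 0.0860 and 0.0210.

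Mesothelial genes, which mark the lining of body cavities, gave 4 of 8 lower, 2 higher and 2 not called, with a median of -1.35. The lower share was 50% against 21.5% of all genes, and the higher share 25% against 20.7%. Without mesoderm A 2 were lower and the median was -0.24, and without mesoderm B 1 was higher and the median was -1.95. Upk3b, a uroplakin of mesothelium, had 0.115 and 1.11 RPKM against 37.3 and 35.3, and Bnc1, a mesothelial zinc finger factor, had 0.184 and 1.14 against 7.47 and 5.85. Wt1, the transcription factor of mesothelium and kidney, had 0.284 and 0.514 RPKM against 1.67 and 0.732, and its call was lost without d10 or without mesoderm A. Gpm6a, a membrane glycoprotein that neurons also make, was higher, at 1.95 and 1.86 RPKM against 0.0910 and 0.0920. Msln was at or below 0.503 RPKM in all 4 libraries and was not called.

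Regulators of lateral and extraembryonic mesoderm, transcription factors and the ligand Bmp4, gave 6 of 15 lower, 4 higher and 5 not called. Against 21.5% and 20.7% of all genes, 40% were lower and 26.7% higher. The median was -0.50, and -1.89 without d15. Foxf1a, a forkhead factor that yolk sac and allantois mesoderm require, had 0.695 and 3.23 RPKM against 28.2 and 31.7. Hand1, needed for yolk sac vessels and heart, had 1.05 and 3.22 RPKM against 10.2 and 8.35, and Tbx20, a T-box factor, had 1.72 and 5.15 against 16.2 and 16.7. Foxf2 was lower too, at 0.257 and 0.494 RPKM against 1.93 and 2.13. Tbx3, which ES cells also express, was higher at 3.71 and 3.43 RPKM against 0.660 and 0.708, a difference of 2.27 ± 0.22. The remaining higher genes were Tbx4, Osr1 and Twist1, named after their values were seen. Twist1, a factor of head and limb mesenchyme, had 4.61 and 7.69 RPKM against 2.11 and 1.30.

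**Figure D3:**
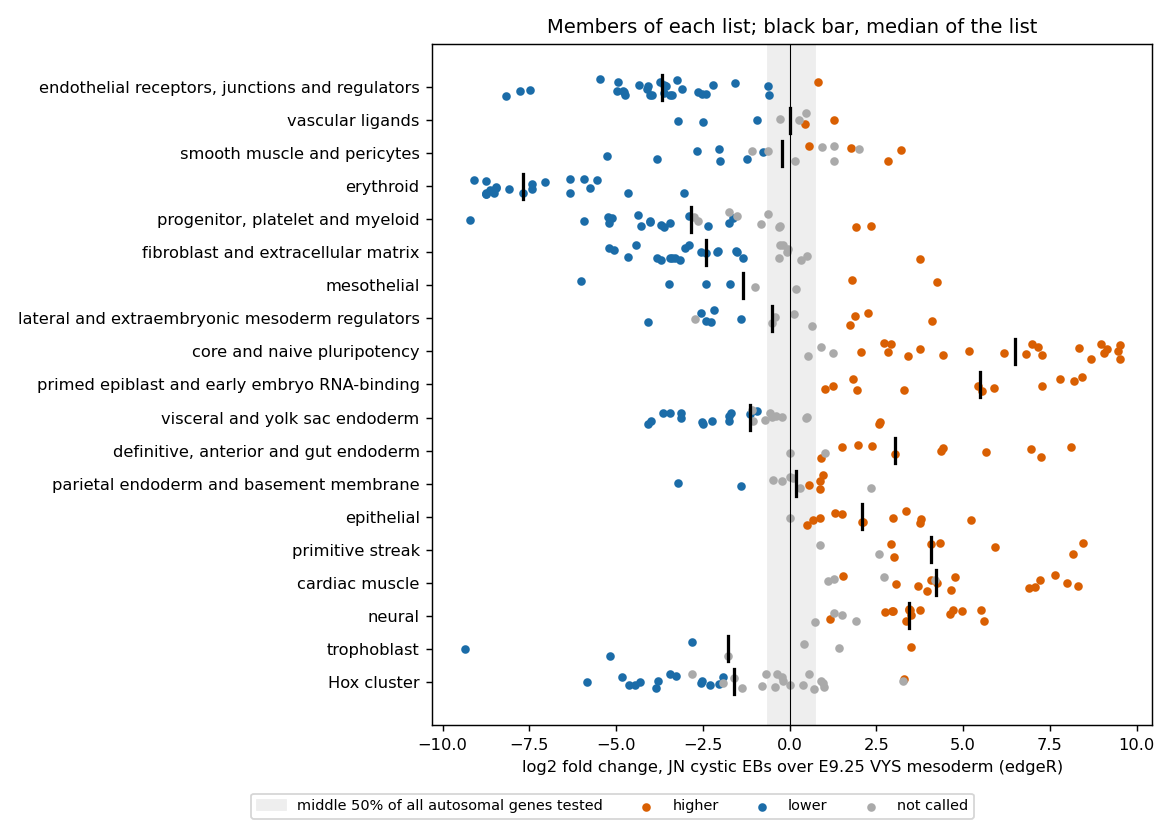
Log2 fold change of every gene tested in each list, JN cystic EBs over E9.25 VYS mesoderm, coloured by call, with the median of the list as a black bar. Genes with 3 reads or fewer in a group are drawn at their fitted value, which is no bound. The grey band holds the middle 50% of all autosomal genes tested. Erythroid genes lie farthest to the left (median -7.67) and core and naive pluripotency genes farthest to the right (median 6.50).

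Pluripotency genes were higher in JN cystic EBs with few exceptions. Of 24 core and naive pluripotency genes, 21 were higher (87.5%, against 20.7% of all genes) and 3 were not called. Their median difference was 6.50 and the smallest 0.52, so no gene lay on the mesoderm side. The median was 5.90 without d10 and 5.77 without mesoderm B. Pou5f1 differed by 8.96 ± 0.51, and by 8.34 without the d10 library. Nanog, its partner in the core circuit, had 30.9 and 23.9 RPKM against 0.0320 and 0.0550, and Sox2 had 43.5 and 31.8 RPKM against 0.142 and 0.0760. Dppa5a, an RNA-binding protein of ES cells, had 180 and 139 RPKM against 0.259 and 0.292, the highest level of the list in both JN libraries. Tdgf1, the Nodal coreceptor Cripto, had 58.1 and 35.0 RPKM against 0.0720 and 0.0470. Fgf4, an ES cell growth factor, had 9.85 and 9.21 RPKM against 0.0200 and 0.00500. The AKT coactivator Tcl1 had 6.21 and 4.07 RPKM in JN cystic EBs, with 2 reads in both mesoderm libraries together. Zfp42 (Rex1), a marker of naive cells that extraembryonic tissue can also express, had 29.5 and 21.1 RPKM against 0.547 and 0.738, and 5.34 and 4.55 RPKM in ysE.

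The 3 genes not called were Tdh, Klf2 and Nr5a2. Tdh, the threonine-degrading enzyme on which ES cells depend, had 35.6 and 17.5 RPKM in JN cystic EBs and 8.79 and 17.4 in mesoderm, and reached 120 and 149 RPKM in ysE. Nr5a2, a nuclear receptor, had 2.65 and 1.98 RPKM against 1.59 and 1.4. Klf2, which endothelium also uses, had 4.21 and 2.5 RPKM against 1.54 and 1.08.

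Genes of the primed epiblast, the state after implantation, stood in 1 list with the early embryo RNA-binding genes Lin28a, Lin28b and Trim71. All were higher, 12 of 12, against 20.7% of all genes, with a median of 5.48 that became 4.61 without d10. Otx2, a homeobox factor of epiblast and forebrain, had 16 and 10.1 RPKM against 0.0200 and 0.0480. Nodal, the ligand that patterns the epiblast, had 6.73 and 6.21 RPKM against 0 and 0.050, and its antagonist Lefty2 had 6.32 and 2.13 against 0.0210 and 0.00600. Zic2 had 8.66 and 4.05 RPKM against 0.0320 and 0.0430. Fgf5, the classic epiblast growth factor, had 4.21 RPKM at d10 and 1.58 at d15 against 0.213 and 0.331. Dnmt3b, a de novo DNA methyltransferase, and Lin28a, an RNA-binding repressor of let-7, were also well represented in mesoderm, at 6.71 and 7.08 RPKM and at 32.7 and 41.9 RPKM. They reached 39.3 and 17.4 RPKM and 113 and 79.7 RPKM in JN cystic EBs. Lin28a had 152 and 161 RPKM in ysE. The difference of Dnmt3b was 1.94 ± 0.36, and 1.18 without the d10 library.

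The days moved in opposite ways for these groups. With 1 library a day there is no test, so counts are given as a description. From d10 to d15, 34 of 36 pluripotent genes were lower at d15, 13 of them by more than 2-fold, and the median d15 level was 0.595 of d10. Among 50 stromal genes 41 were higher at d15, 27 by more than 2-fold, with a median ratio of 2.05. For 56 vascular genes 43 were higher and the median ratio was 1.65, and for 47 blood genes 35 were higher and the ratio was 1.63. Over all 16708 autosomal genes tested, 8490 were higher at d15, 992 by more than 2-fold, and 8155 were lower, 488 by more than 2-fold, with a median ratio of 1.01. Over the whole lists, both JN libraries, d15 included, lay below both mesoderm libraries for 29 of 30 endothelial and 21 of 21 erythroid genes, against 37.2% of all. Pou5f1 at d15 was still at 39.1 RPKM.

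**Figure D4:**
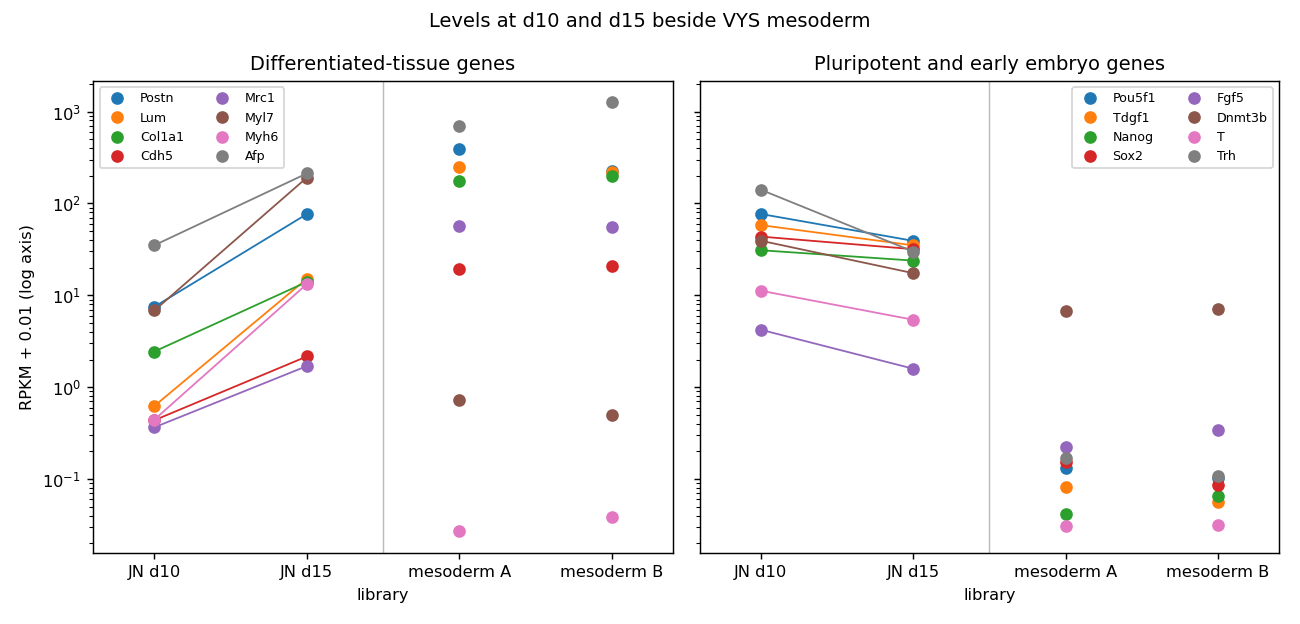
RPKM plus 0.01 on a log axis for 8 genes of differentiated tissue (left) and 8 pluripotent or early embryo genes (right). Lines join the d10 and d15 libraries of JN cystic EBs, and the mesoderm libraries stand beside them: Postn went from 7.50 to 76.6 RPKM and Pou5f1 from 76.8 to 39.1.

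Endodermal genes split by kind. Secreted and absorptive proteins of visceral and yolk sac endoderm were lower in JN cystic EBs for 14 of 25 genes, higher for 2 and not called for 9. The shares were 56% lower and 8% higher, against 21.5% and 20.7% of all genes, and the median was -1.15. Without mesoderm B 9 were lower, and without d15 the median was -2.37. Afp, alpha-fetoprotein, had 35.1 RPKM at d10 and 212 at d15 against 700 and 1255 in mesoderm A and B, and 6071 and 6628 in ysE. Its difference was -3.14 ± 0.75, and -4.89 without d15 or -2.37 without d10. In a fit of all 11 RNA-seq libraries it was no longer called. Apoa4, a lipid carrier, had 4.56 and 7.86 RPKM against 62.3 and 116, and Trf, the iron carrier transferrin, had 3.62 and 18.3 against 88.2 and 160. The fibrinogen chains Fga and Fgg followed, Fga at 0.491 and 1.79 RPKM against 11.3 and 23.3. The other fibrinogen chain of the list, Fgb, was not called. Ttr, the thyroid hormone and retinol carrier transthyretin, was not called, at 42.8 and 160 RPKM against 113 and 188. Amn, part of the uptake receptor of yolk sac endoderm, had 5.27 and 12.4 RPKM against 19.5 and 31.9, and Hnf4a, the master regulator of this endoderm, had 3.23 and 5.08 against 5.23 and 11.5. The calls of Amn and Hnf4a were lost without mesoderm B, and that of Hnf4a also without d10.

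ysE is the tissue peeled from the mesoderm, and both mesoderm libraries held these genes at a share of its level. A gene of the list stood at a median of 9.05% of its mean ysE level in mesoderm A and 15.6% in mesoderm B, and 23 of 25 genes were higher in B than in A. The summed level of the list was 1730 and 3069 RPKM in mesoderm, 736 and 1439 in JN cystic EBs, and 16774 and 18725 in ysE. Both sides were below ysE, and the part of attached endoderm in the lower calls was not tested. Against ysE, the median gene of the list in JN cystic EBs stood at 5.80%.

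**Figure D5:**
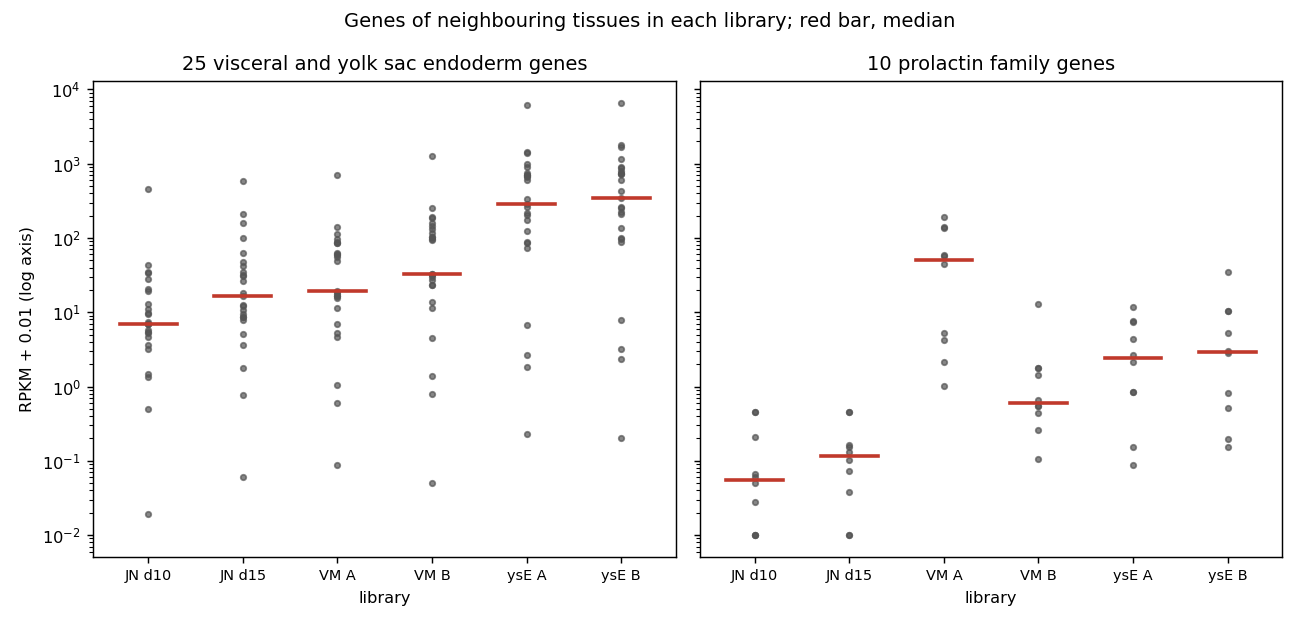
RPKM plus 0.01 on a log axis in JN cystic EBs (d10, d15), VYS mesoderm (VM A, VM B) and ysE, for the 25 visceral and yolk sac endoderm genes (left) and the 10 prolactin family genes with at least 1 RPKM in a mesoderm library (right), with the median of the genes in red. The median endoderm gene is lower in the JN and mesoderm libraries than in ysE. The median prolactin gene is highest in mesoderm A, but these genes were kept by their mesoderm level, so that place is no result.

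Gata4 and Spink3 were the 2 genes of this list that were higher. Gata4, an endoderm and heart factor, had 7.02 and 8.54 RPKM against 1.04 and 1.37, near the 6.68 and 7.82 RPKM of ysE. Spink3, a secreted protease inhibitor, had 454 and 577 RPKM in JN cystic EBs against 58.9 and 96.1 in mesoderm, and 699 and 604 in ysE, a difference of 2.60 ± 0.27 from mesoderm. Spink3 was the most abundant gene of the list in JN cystic EBs on both days, while Afp was in mesoderm and ysE.

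Definitive, anterior and gut endoderm genes were higher in JN cystic EBs for 11 of 13 genes tested and not called for 2. The higher share was 84.6%, against 20.7% of all genes, and the median was 3.03. Summed over the list, the level was 35.0 and 33.0 RPKM in JN cystic EBs and 7.06 and 9.43 in mesoderm. In ysE the sum was 47.8 and 58.5 RPKM, above both JN libraries. Foxa2, a forkhead factor of endoderm, node and floor plate, had 7.33 and 7.41 RPKM against 0.725 and 1.88, and 13.2 and 14.5 in ysE. Its difference was 2.37 ± 0.41, and 3.25 without mesoderm B. Shh, a signal of notochord, floor plate and gut, had 3.88 and 3.57 RPKM against 0.0200 and 0.00600, and ysE was as low, at 0.00600 and 0.0170. Cdx1 did not pass the filter. Sox17, an endoderm factor that arterial endothelium also uses, had 5.37 and 5.70 RPKM against 2.93 and 2.48. Its difference of 0.92 ± 0.20 lost its call without mesoderm B. Cer1, an antagonist made by anterior endoderm, had 1.38 RPKM at d10 and 0.296 at d15, with 2 reads in mesoderm. Hesx1 and Lhx1, anterior regulators, had 2.27 and 1.67 RPKM at d10 and 0.454 and 0.381 at d15, against at most 0.0920 in mesoderm. The gut hormone gene Pyy had 3.10 and 1.75 RPKM, and 2 reads in both mesoderm libraries together.

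Parietal endoderm and basement membrane genes gave 4 of 12 higher (33.3%, against 20.7% of all genes), 2 lower (16.7%, against 21.5%) and 6 not called. In a fit of all 11 RNA-seq libraries 1 was higher, and the call of Plat was among those lost. Lama1, a laminin chain of embryonic basement membranes, had 38.7 and 36.2 RPKM against 20.7 and 17.3, and its call was lost without mesoderm B. Plat, the plasminogen activator, had 18.5 and 20.1 RPKM against 10.5 and 8.78, and the parathyroid hormone receptor Pth1r had 16.5 and 20.4 against 8.05 and 9.20. Lower were Nid1, a linker of basement membrane, at 9.19 and 14.1 RPKM against 29.2 and 27.4, and Thbd, thrombomodulin, at 1.09 and 0.921 against 9.74 and 7.56. Sparc, a matrix glycoprotein that parietal endoderm makes in quantity, was not called, at 152 and 276 RPKM against 294 and 248.

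Lists for other tissues that cystic EBs or the dissection could hold were read in the same way. For epithelial, primitive streak and neural genes the higher shares were 92.3%, 77.8% and 78.9%, against 20.7% of all genes. Epithelial genes were higher in JN cystic EBs for 12 of 13, with Epcam at 77.6 and 96.3 RPKM against 5.49 and 10.2 and Grhl2, an epithelial transcription factor, at 3.54 and 4.71 against 0.321 and 0.243. The adhesion molecule Cdh1 had 37.7 and 27.7 RPKM against 4.66 and 9.16. ysE held Epcam at 85.8 and 82.4 RPKM. Primitive streak genes were higher for 7 of 9: T (brachyury) had 11.2 and 5.41 RPKM against 0.0210 and 0.0220, Eomes had 1.74 and 0.901 against 0.0890 and 0.0340, and Fgf8 had 3.25 and 3.63 with 3 reads in mesoderm. Neural genes were higher for 15 of 19 tested, among them Stmn2, a neuronal microtubule regulator, at 15.4 and 8.39 RPKM against 0.993 and 0.655, and Pax6 at 0.765 and 1.74 against 0.0340 and 0.0160. Sox1 was not called, at 1.72 and 1.34 RPKM against 0.969 and 0.218.

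Heart muscle genes were higher for 14 of 18 (77.8%, against 20.7% of all genes), most of all in the d15 library. In that library all 18 were above d10 and 17 by more than 2-fold, a median ratio of 6.07. Without d15 9 of 17 genes tested were higher, without mesoderm B 9 of 18, and by limma on log2(RPKM + 1) 7 of 18. Myl7, the atrial light chain, had 6.83 RPKM at d10 and 191 at d15 against 0.709 and 0.494 in mesoderm. Its difference was 7.21 ± 1.52, 3.43 without d15 and 8.16 without d10. The myosin heavy chains Myh6 and Myh7 had 0.434 and 5.94 RPKM at d10 and 13.2 and 33.0 at d15, and at most 0.0710 in mesoderm. Nkx2-5, the heart regulator, had 0.439 and 1.32 RPKM and 2 reads in mesoderm. The calls of Tnnt2 and Ryr2, troponin T and the calcium release channel of heart muscle, were lost without the d15 library or without either mesoderm library.

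Hox genes, which set position along the body, were lower for 14 of 33 tested, higher for 1 and not called for 18. That was 42.4% lower and 3.03% higher, against 21.5% and 20.7% of all genes. The list median was -1.60. Without mesoderm A 8 were lower, 2 were higher and the median was -0.24, and without mesoderm B the median was -2.21. Hoxc8 had 0.125 and 0.609 RPKM against 17.8 and 20.1, the highest Hox level in mesoderm. Its difference was -5.83 ± 0.64, -7.32 without d15 and -5.12 without d10. Hoxb6 had 0.0390 and 0.25 RPKM against 3.55 and 1.72, and Hoxc6 had 0.0710 and 0.0560 against 1.28 and 1.28. Hoxd13 was the gene that was higher, from levels of 0.116 and 0.169 RPKM against 0.0140 and 0.0120.

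Some genes that placenta or uterus express were far higher in mesoderm replicate A than in B. Prl8a2, a prolactin-type hormone of the decidua, had 194 RPKM in mesoderm A and 13.0 in B, and Prl3d1, a hormone of trophoblast giant cells, had 58.5 and 0.544. JN cystic EBs held 0.0570 and 0.0620 RPKM of Prl8a2 and 0 and 0.0920 of Prl3d1. Of 26 prolactin family genes in the table, 10 had at least 1 RPKM in a mesoderm library. A gene below 1 RPKM in B entered these 10 only through A, so their common direction is no result. Prl2c4 and Prl4a1, above 1 RPKM in both, had 141 and 4.19 RPKM in A and 1.79 and 1.42 in B. Outside the 10, Prl7b1 and Prl2c1 had 0.113 and 0.037 RPKM in A and 0.363 and 0.243 in B. Several family members are near-identical copies that can share reads. The family summed to 650 RPKM in mesoderm A, 22.2 in B, 1.43 and 1.88 in JN cystic EBs and 38.5 and 69.6 in ysE. Hoxa10 and Hoxa11, which the uterus expresses, had 1.57 and 0.769 RPKM in A and 0.131 and 0.0470 in B. Other Hox genes went either way, with Hoxb6 at 3.55 RPKM in A and 1.72 in B and Hoxc8 at 17.8 and 20.1. The prolactin family, Hoxa10 and Hoxa11 were chosen for display after their values were seen. The trophoblast list gave 1 of 7 higher, 3 lower and 3 not called, with a median of -1.76 that became -3.23 without d10 and -1.02 without d15. Its shares were 14.3% higher and 42.9% lower, against 20.7% and 21.5% of all genes. Of its regulators, Elf5 was at or below 0.0580 RPKM in all 4 libraries. Tfap2c was higher in JN cystic EBs, at 5.77 and 4.28 RPKM against 0.811 in A and 0.0260 in B, a call lost without the d10 library. It was also lost in the fit of the 4 libraries alone and in that of all 11, in which 1 gene of the list was lower. Whether placental or uterine tissue was in mesoderm A, and its part in the other results, was not tested. Without mesoderm A, the number of genes lower was 33 for the vascular group, 34 for the blood group and 25 for the stromal group, without mesoderm B it was 35, 32 and 28, and with both it was 39, 37 and 29.

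The largest autosomal differences among genes with at least 10 RPKM on the higher side were as follows. On the JN side they were Tdgf1, Nanog, Dppa5a, Pou5f1 and Trh. Trh, thyrotropin-releasing hormone, had 141 RPKM at d10 and 30.0 at d15 against 0.158 and 0.0970, a difference of 9.31 ± 0.92 that was 7.73 without d10 and 10.04 without d15. On the mesoderm side they were Prl8a2, Prl3d1, Hbb-y, Hbb-bh2 and Fam162b. Hbb-bh2, a further member of the beta globin cluster, had 0.0310 and 0.0430 RPKM against 19.9 and 19.5. Fam162b had 3 reads in both JN libraries together and 12.6 and 10.3 RPKM in mesoderm. The difference of Prl8a2 was -10.83 ± 1.68 and became -7.89 without mesoderm A and -11.73 without B. That of Prl3d1 was -9.35 ± 2.26, and became -3.66 without mesoderm A, -10.34 without B and -8.44 without d10. Without d15 no read of Prl3d1 was left on the JN side, so no fold is given.

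Yolk sac H3K4me3 peaks gave a readout of the same genes that the choice of groups did not use. A peak lay within 1 kb of either end of 75.7% of the autosomal genes tested. That share was 80.8% among the 3599 genes lower in JN cystic EBs and 68.5% among the 3453 higher. By list the share was above that of all genes for endothelial genes (27 of 30) and mesoderm regulators (14 of 15). It was close to it for fibroblast and matrix genes (21 of 27, or 77.8%), primed epiblast and RNA-binding genes (9 of 12, or 75%) and definitive endoderm genes (10 of 13, or 76.9%). It was lower for erythroid genes, at 14 of 21 or 66.7%. Hbb-y and Hba-a1 were counted among these 14, though no peak lay within 1 kb of their starts, so their peaks lay at the other end. At the low end the share was 4 of 8 for mesothelial genes, 10 of 24 for core and naive pluripotency genes, 7 of 19 for neural genes, 3 of 18 for heart muscle genes, 2 of 9 for primitive streak genes and 0 of 7 for trophoblast genes. All 13 epithelial genes had a peak, although 12 of them were higher in JN cystic EBs, and so had 22 of 25 visceral and yolk sac endoderm genes. The peaks come from whole yolk sac at E12.5, a later stage than the mesoderm.

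Motif matches were counted in the promoters of the endothelial, erythroid, smooth muscle and pericyte, and core and naive pluripotency lists. The ETS motif AGGAAG, searched on both strands, was in a promoter of 11 of the 19 endothelial genes with a sequence in the table, and in 52.2% of their 23 promoters, against 35.1% of all 31396 autosomal promoters of the same length. The GATA motif AGATAA, on both strands, was in a promoter of 4 of 12 erythroid genes (Epor, Hemgn, Tal1 and Trim10), or 30.8% of their 13 promoters, against 11.2% of all. It was in 2 of 19 endothelial genes, Tek among them, or 8.70% of their promoters. The TATA motif TATAAA, on the gene's strand, was in 15.4% of the erythroid promoters, that of Hba-x among them, against 8.32% of all, and in 0 of 14 smooth muscle and pericyte promoters. The KLF motif CCACACCC, on both strands, was in 0 of 12 erythroid genes and 3.57% of all promoters, and the CArG box, on the gene's strand, was in 1 of 14 smooth muscle and pericyte promoters, or 7.14%, against 1.57%. The octamer ATGCAAAT, on both strands, was in 1 of 21 promoters of pluripotency genes, or 4.76%, against 1.75% of all. AGATAA and TATAAA can share letters where they overlap. A match is only a string of letters in this window, and 19, 12 and 15 members had a sequence of the 30, 21 and 24 members of these lists.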

How the data were processed

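RNA-seq of JN cystic EBs (d10 and d15) and E9.25 VYS mesoderm (replicates A and B) was analysed from the tables the authors deposited. Per the labels and methods, the authors aligned reads with GSNAP to mm10 and deposited raw counts per RefSeq transcript. The authors also deposited RPKM, which are used here as levels. For H3K4me3, the authors deposited peaks called with MACS (1.4.2) on 1 E12.5 VYS sample, each with a MACS score. Whether counting used strand is not given in the sources used here. Samples were grouped from the labels only.

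Counts were fitted in R 4.3.3 with edgeR 4.0.16 (TMM scaling, filterByExpr, quasi-likelihood test) across the 6 dUTP libraries in 3 groups, JN cystic EBs, VYS mesoderm and ysE, which share 1 estimate of the spread on 3 residual degrees of freedom. The filter kept 23265 of 30455 transcripts. A gene is its transcript with the highest mean count. Genes were given chromosomes from RefSeq for 30294 transcripts. P-values were Benjamini-Hochberg adjusted. Each SE is the size of the log2 fold change over the square root of its quasi-likelihood F statistic. It therefore rests on the spread shared by the 6 libraries. Genes named are the 3 markers, the defining markers of each list, the 4 largest called differences of a list with non-overlapping libraries and at least 1 RPKM, and the 5 largest in each direction with at least 10 RPKM. Other list members given were named after their values were seen. The members, lists and rule were chosen with earlier results of these data known. The fit was tested on simulated counts with 200 changed transcripts. DESeq2 1.42.0 and limma 3.58.1 on log2(RPKM + 1) or log2(RPKM + 0.1) were alternatives, with other scaling, filters and libraries left out. Totals of 96882725 to 119296265 counts a library limit counting error to genes near 0, so replicate spread sets the precision. P-values measure only the spread between these libraries. Ahsp and Muc16 were not matched and are not analysed here. Figures used matplotlib 3.10.9.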

Additional observations from a re-analysis of the deposited data

How the results depend on the processing

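Of the 110 named genes called, 95 kept their call under every other scaling, tool, filter, transcript choice and unit, with no change of direction. Leaving out 1 library changed no direction either. Many of these genes were named for a large called difference with non-overlapping libraries, so a kept direction was largely fixed by that choice. With 1 transcript a gene, DESeq2 size factors, upper-quartile scaling, the DESeq2 test, limma on log2(RPKM + 1) or log2(RPKM + 0.1), no filter, no Rn45s, all 11 libraries or the 4 libraries alone, the numbers of autosomal genes higher and lower stayed within 1.5 times the main ones. Upper-quartile scaling gave 3901 higher and 3193 lower, and limma on log2(RPKM + 1) 4046 and 3035. Scaling moved the median of all genes to 0.10 at most, from 0.01. Among the genes tested in each fit, leaving out 1 library moved the count of autosomal genes higher in JN cystic EBs than in E9.25 VYS mesoderm between 2019 and 3361, and that of autosomal genes lower in JN cystic EBs than in E9.25 VYS mesoderm between 2319 and 3921, both lowest without a mesoderm library, where the lone sample left is assumed to vary like the other groups. Of 258 called members and named genes, 192 kept their call in every setting other than clone A9, 57 lost it without 1 of the 4 libraries and 47 under another setting. The fold of 150 moved by more than 1.5 times without 1 of the 4 libraries, 83 without d10, 98 without d15, 41 without mesoderm A and 49 without B. Clone A9 was set in place of JN in a fit of all 11 libraries, so JN values of that fit are given beside it. With A9 17 stromal genes were lower, against 29 with JN. Endodermal genes were 24 higher and 6 lower, against 14 and 14. Visceral endoderm genes were 5 lower against 12, and Hox genes 5 against 13. List medians were -0.04 for visceral endoderm, 0.63 for Hox and 4.33 for trophoblast, against -1.19, -1.64 and -1.79. Trophoblast genes were 5 higher and 0 lower, against 0 and 1. Of parietal endoderm genes 8 were higher, against 1. Of the 258, 14 took the other direction with A9, Nid1 at 0.35 among them, and 3 of these were called in it, Flt1 (0.61), Prl2a1 and Tpbpa. Sparc, not called with JN, was at 1.56. A9 and JN share the mesoderm libraries and differ in clone, sex and library protocol, and the cause was not tested. No paired analysis was possible because both JN libraries carry the same replicate letter and so share fewer than 2 numbers with mesoderm A and B. Limma on log2(RPKM + 1) lowers the fold of low genes by its construction. Where a group had 3 reads or fewer, no fold of that gene is printed, but list medians, the plot of list members and the ranking of the largest differences use its fitted value.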
